A study of Carassius gibelio with 4 samples.

Results

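This account describes the 66 gene IDs that were found in the liver of gibel carp of strain F and were listed at 0 in strain A. They were picked from 56011 IDs by 2 conditions: a level of 10 or more in strain F fed rapeseed meal, and a listed value of 0 in both libraries of strain A. The library of strain F fed fishmeal played no part in the choice and is the only independent view of these IDs. The 66 IDs belong to 57 assembly components (IDs with the same c number), out of 41679 components in all. They make up 0.995% of the 6632 IDs at 10 or more in strain F on rapeseed, a share that the rule itself fixes.

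The series holds 4 liver libraries of gibel carp (Carassius gibelio), sampled 8 hours after the fish were last fed. They are A strain on a fishmeal diet, A strain on a rapeseed meal diet, F strain on a fishmeal diet and F strain on a rapeseed meal diet, with 1 library each. The labels give neither the age of the fish nor how many fish went into a library. A difference between strains and a difference between the fish sampled cannot be told apart, and no replicate error or test can be given for any value here.

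Gibel carp is a polyploid relative of goldfish and crucian carp that can reproduce clonally, by gynogenesis, in which sperm of another fish starts development without passing on its genes. Strains can therefore persist as clonal lineages, and the genome carries several closely related copies of many genes. An assembly made from reads may join such copies, or alleles of one gene, in 1 ID, or may place them under several IDs of 1 component. The liver makes most proteins of the blood plasma and handles nutrients and foreign compounds from the feed. Rapeseed meal brings plant protein with glucosinolates and other antinutritional compounds in place of fish protein.

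No file names the genes behind the IDs, and 0 of them could be found in the RefSeq gene table of the assembly carGib1.2-hapl.c. No gene function is therefore given, and the liver label could not be checked against marker genes. Levels are FPKM, which scales fragments by transcript length and by the mapped total of the library, times a factor for each library, and are called FPKM below. The factors were 0.993 and 1.34 for strain A on fishmeal and rapeseed, and 0.705 and 1.07 for strain F. The libraries of strain A listed 47201 and 44906 IDs above 0, and the strain F rapeseed library listed 47839. The strain F fishmeal library, a shallow one, listed 19015. By an estimate from low values, it held 1 read for every 54.6 reads of any one of the other 3. For the 2243 short or weakly expressed IDs used for depth, 1 read in it would be worth a median of 29.2 FPKM (5th to 95th percentile 16.6 to 60.8, bounded by how these IDs were picked). The ratio of 54.6 itself rests on 71 of them. In bulk liver, fewer cells of a type and less RNA per cell cannot be told apart.

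The same rule was applied to the other 2 deep libraries. Strain A on fishmeal had 3 IDs at 10 or more that were listed at 0 in the other 2 deep libraries, and the rapeseed library of strain A had 3 such IDs, against the 66. None of those 6 reached 100 FPKM, and 10 of the 66 did. The latter share, 15.2%, was near that of all IDs at 10 or more in strain F on rapeseed, 1027 of 6632. Each strain A library was set against its own strain as well, so its count is lower by construction where strains differ. Taken in single pairs, 79 IDs were at 10 or more in strain F and at 0 in strain A on rapeseed, and 89 the other way round. Between the diets of strain A, 6 IDs were at 10 or more on fishmeal and at 0 on rapeseed, and 10 the reverse. A level of 10 or more against a listed 0 was thus rarer between the diets of strain A than between the strains on rapeseed, in both directions.

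The 66 IDs were mostly of modest level. On rapeseed they ran from 10.03 to 567 FPKM with a median of 16.7 FPKM. Of them, 37 stood at 10 to 20 FPKM, 16 at 20 to 50, 3 at 50 to 100 and 10 at 100 or more. The 10 highest held 67.0% of the summed level of all 66. Together the 66 made up 0.275% of the summed level of the rapeseed library and 0.242% of that of the strain F fishmeal library.

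The highest ID, c29712_g1, stood at 567 FPKM in strain F on rapeseed, rank 276 among all IDs of that library, and at 62.5 FPKM on fishmeal. Next came c43908_g1, at 293 FPKM on rapeseed and 186 on fishmeal, and c19936_g1, at 288 and 44.1 FPKM. These IDs were listed at 0 in both strain A libraries, as all members were, so no fold between the strains is given. The ID c6838_g2 stood at 288 FPKM on rapeseed and 148 on fishmeal. The ID c33847_g3 stood at 180 and 46.5 FPKM, and c27348_g2 at 176 and 42.1 FPKM. All 6 were above 0 on both diets of strain F and higher on rapeseed as deposited. With the library factors divided out, the log2(FPKM + 1) fold of rapeseed over fishmeal fell from 0.66 to 0.06 for c43908_g1. For c6838_g2 it fell from 0.95 to 0.35.

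The other members at 100 FPKM or more split into 2 kinds. The ID c31141_g2 stood at 169 FPKM on rapeseed and 69.3 on fishmeal, and c30556_g3 at 163 and 33.6 FPKM. In contrast, c27093_g2 stood at 136 FPKM on rapeseed and c6838_g1 at 113 FPKM, and both were listed at 0 on fishmeal. Of the 10 members at 100 FPKM or more, 8 were thus above 0 in both strain F libraries. The plot of the members' levels shows the value on each diet for all 66.

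**Figure D1:**
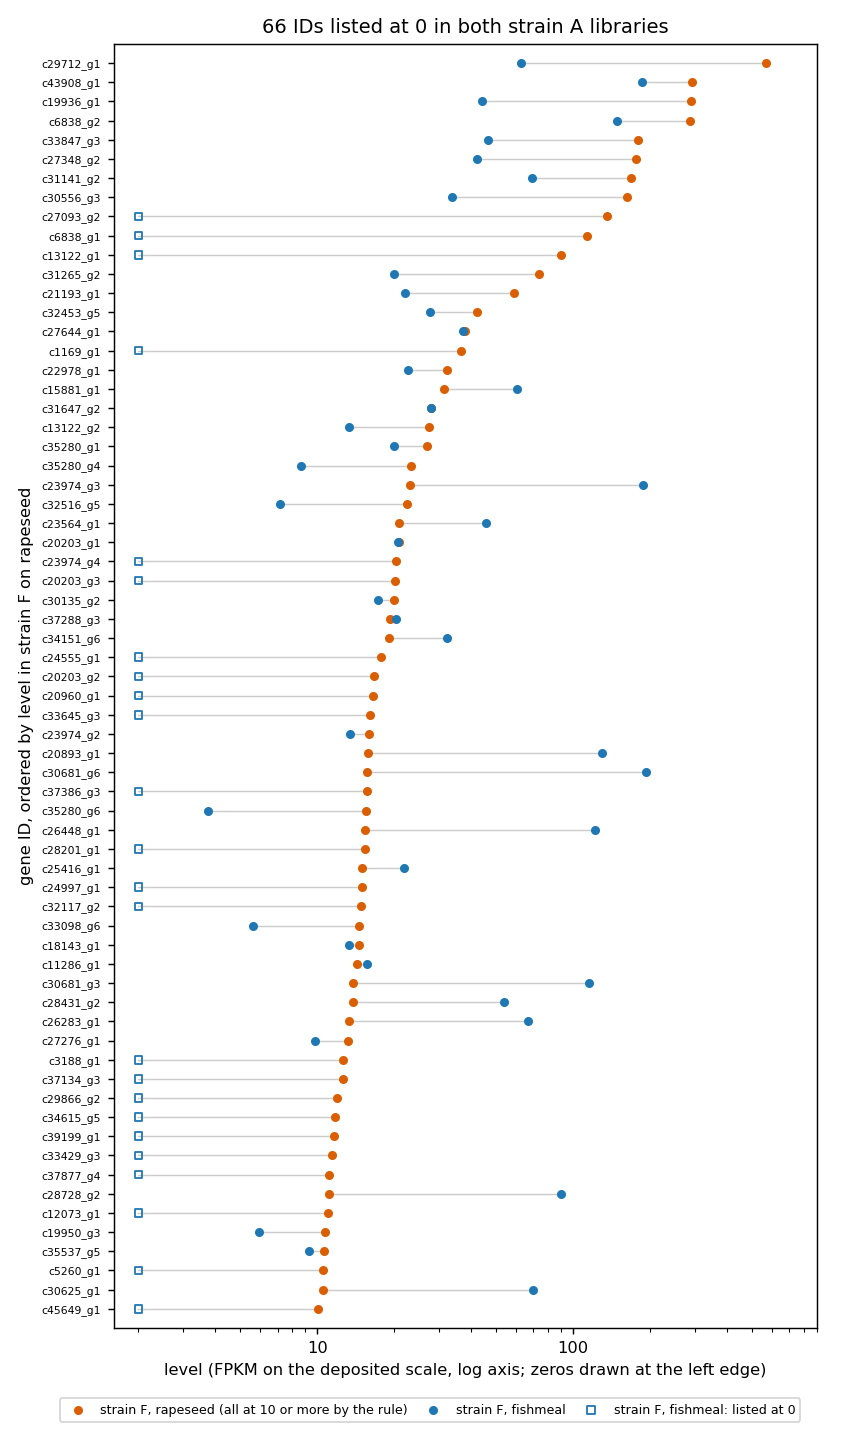
Level of each of the 66 IDs in strain F on rapeseed (orange) and on fishmeal (blue), on a log axis of FPKM, ordered by the rapeseed level; open squares at the left edge are IDs listed at 0 on fishmeal. All 66 are at 0 in both strain A libraries, and 42 are above 0 on fishmeal, where values run from 3.75 to 192 FPKM.

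At the lower edge of the rule, the members with the lowest rapeseed level were c5260_g1 at 10.6 FPKM, c30625_g1 at 10.50 and c45649_g1 at 10.03. Just outside it, at 0 in strain A, stood c42925_g1 at 9.72 FPKM, c31359_g4 at 9.69 and c34615_g3 at 9.59. On fishmeal, c30625_g1 stood at 70.0 FPKM and c31359_g4 at 123 FPKM, and the other 4 were listed at 0. On the strain A side, the IDs kept out by a value above 0 of at most 0.1 FPKM were c26076_g3, c36967_g1 and c31769_g2, with 0.067, 0.053 and 0.094 FPKM on rapeseed and 0 on fishmeal. Both edges therefore cut through IDs of like pattern.

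The strain F fishmeal library, which did not choose the IDs, listed 42 of the 66 above 0 (63.6%). Over all 6632 IDs at 10 or more in strain F on rapeseed, the share above 0 was 92.2%. The 66 were thus found again less often than IDs of the same lower limit in general, and most of those are also present in strain A. Among members at 10 to 20 FPKM on rapeseed, 19 of 37 were above 0 on fishmeal, against 88.2% of all IDs of that class. At 20 to 50 FPKM it was 13 of 16 against 93.1%, at 50 to 100 FPKM 2 of 3 against 96.4%, and at 100 or more 8 of 10 against 99.1%. In each class the members' share lay below that of all IDs, and the classes hold few members. IDs of like FPKM can rest on unlike numbers of reads, since transcript lengths are not used, so these shares are not matched for reads.

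Other IDs at 0 in strain A give the lower end of that scale. Of 1668 IDs at 0 in all 3 deep libraries, 83 were above 0 in strain F on fishmeal (4.98%). Among IDs at 0 in strain A, the share above 0 on fishmeal was 9.34% at a rapeseed level of 1 to 2 FPKM (138 of 1477), 9.76% at 2 to 5 FPKM and 22.3% at 5 to 10 FPKM (40 of 179). The class above 0 and below 1 FPKM had 19.1% (184 of 962), so the share did not follow the level throughout. All of these shares lay below the 19 of 37 of the lowest class of members.

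A mirror set, of IDs present in strain A, was looked up in the same library. Of 57 IDs at 10 or more in both strain A libraries and at 0 in strain F on rapeseed, 2 were above 0 in strain F on fishmeal (3.51%). That share was near the 4.98% of IDs at 0 in all 3 deep libraries. For IDs that the 3 deep libraries place in 1 strain, the fishmeal library of strain F thus listed 42 of 66 of those seen in strain F and 2 of 57 of those seen in strain A. By the 2 rapeseed libraries alone, it listed 48 of 79 and 2 of 89.

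**Figure D2:**
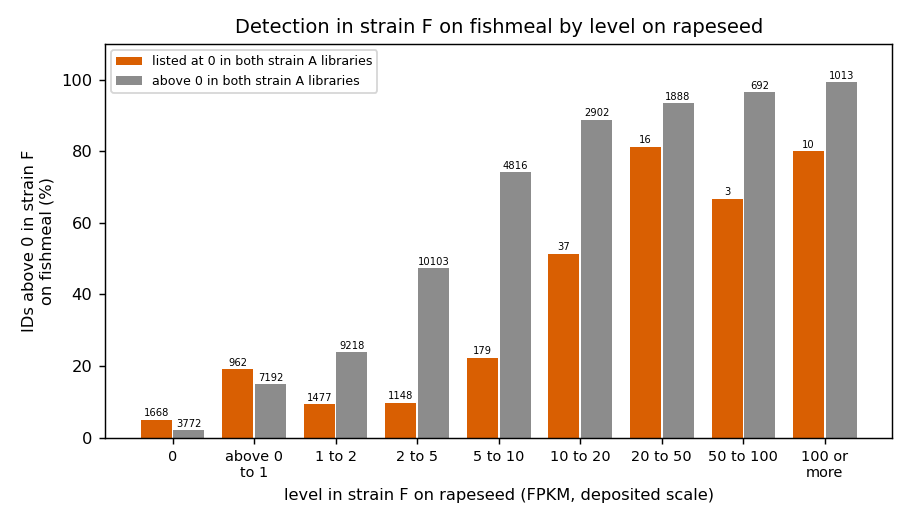
Percent of IDs above 0 in the strain F fishmeal library, by class of level in strain F on rapeseed (FPKM), for IDs at 0 in both strain A libraries (orange) and IDs above 0 in both (grey); the number over a bar is its count of IDs. From 10 FPKM upward the orange bars are the 66 members, and in each such class they lie below the grey bars.

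Among the 42 IDs above 0 on fishmeal, levels there ran from 3.75 to 192 FPKM with a median of 30.2 FPKM, and 35 were at 10 or more. Of the 42, 12 stood above 60.8 FPKM, the 95th percentile of what 1 read is worth in the IDs used for depth. The other 30 lay at or under it. How many reads any of the 42 rest on is not known. Longer transcripts have a lower worth per read, and transcript lengths are not used here.

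The 24 members at 0 on fishmeal were mostly low on rapeseed, and 6 of the 29 members at 20 FPKM or more were among them. These 6 were c27093_g2, c6838_g1, c13122_g1 at 89.6 FPKM, c1169_g1 at 36.5, c23974_g4 at 20.4 and c20203_g3 at 20.2. In the library as a whole, zeros at such levels were a minority that shrank with the level. Of all IDs, 93.1% at 20 to 50 FPKM on rapeseed and 96.4% at 50 to 100 FPKM were above 0 on fishmeal. Of the 1027 IDs at 100 FPKM or more on rapeseed, 9 were listed at 0 on fishmeal, and 2 of those 9 were the members c27093_g2 and c6838_g1. For c6838_g1, c13122_g1, c23974_g4 and c20203_g3, another ID of the same component was above 0 on fishmeal and also at 0 in strain A. For c27093_g2, the other IDs of its component were present in all 4 libraries.

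Diet was compared within strain F for the 42 IDs above 0 on both diets, as differences of log2(FPKM + 1). Since the rapeseed value chose the members, these folds are a description. The median log2 fold of rapeseed over fishmeal was 0.22, with a range from -3.53 to 3.16 and an SD of 1.74 over the 42 IDs. Over the 6114 IDs at 10 or more on rapeseed and above 0 on fishmeal, the median was 0.44 and the SD 0.87. The library factors alone add 0.60 to this fold. With them divided out the medians were -0.35 for the 42 members and -0.13 for the 6114 IDs. The members' median lay below that of all such IDs by 0.22 as deposited and by 0.21 without the factors.

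The members spread to both sides. At least 2-fold higher on rapeseed were 12 of the 42 (28.6%), against 20.7% of the 6114 IDs. At least 2-fold lower were 10 of the 42 (23.8%), against 4.96%. With the factors divided out, 7 were higher (16.7%, against 7.33%) and 13 lower (31.0%, against 12.7%). Levels on the diets were also less alike in order, with a Spearman rho of 0.23 across the 42 members and 0.77 across the 6114 IDs (Pearson r of log2 levels 0.32 and 0.87). These are correlations across IDs of the same 2 libraries, and the members span a narrower range of levels.

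The median fold rose with the rapeseed level, which is itself part of the fold. The 8 members at 100 FPKM or more on rapeseed and above 0 on fishmeal had a median log2 fold of 1.98. Of them, 6 were at least 2-fold higher on rapeseed and 0 lower. All 1018 such IDs had a median of 0.70, with 25.9% higher and 1.47% lower. The 15 members at 20 to 100 FPKM had a median of 0.41, beside 0.48 for 2466 IDs. The 19 members at 10 to 20 FPKM had a median of -0.51, with 2 higher and 8 lower. Beside them, 2630 IDs had a median of 0.23, with 16.8% higher and 7.49% lower. With the library factors divided out, the medians of members and of all IDs were 1.39 and 0.10 in the highest class, -0.17 and -0.10 in the middle one and -1.09 and -0.34 in the lowest. The order by level thus stayed. The sign turned in the middle class for both, and in the lowest class for all IDs. A limit on the rapeseed level raises the fold of the classes picked at high rapeseed levels, in members and other IDs alike. The classes leave out members at 0 on fishmeal, where 1 read was worth a median of 29.2 FPKM in the IDs used for depth. Members above 0 there had fishmeal medians of 21.8, 22.1 and 54.5 FPKM from the lowest class to the highest. The order by level is therefore partly set by how the classes were picked.

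The members with the largest higher folds on rapeseed were c29712_g1, 9.08 times its fishmeal level (log2 fold 3.16), c19936_g1, 6.53 times (2.68), and c30556_g3, 4.85 times (2.24). The fishmeal levels behind these folds, 33.6 to 62.5 FPKM, fall at or near the range that 1 read is worth in the IDs used for depth. Next to them, c27348_g2 was 4.18 times and c35280_g6 4.15 times higher on rapeseed. At the other end, c30681_g6 read 192 FPKM with fishmeal against 15.7 with rapeseed, 12.2 times higher with fishmeal. The ID c30681_g3 stood at 116 and 13.8 FPKM, 8.39 times higher, and c23974_g3 at 188 and 23.0 FPKM, 8.15 times higher. These 3 had the lowest folds on the log2(FPKM + 1) scale.

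These IDs were part of a larger set that was singled out after the values were seen. In all, 8 members of 7 components were at least 4-fold higher on fishmeal, 19.0% of the 42 against 1.39% of the 6114 IDs (85 of them). Beside the 3 just given, they were c20893_g1 at 130 FPKM on fishmeal and 15.9 on rapeseed, c26448_g1 at 122 and 15.4, c28728_g2 at 89.8 and 11.1, c30625_g1 at 70.0 and 10.50, and c26283_g1 at 66.5 and 13.3. Their fishmeal levels, 66.5 to 192 FPKM, all lay above the 95th percentile of the worth of 1 read in the IDs used for depth. That percentile is bounded by how those IDs were picked, so how many reads the levels rest on is not known. Their rapeseed levels, 10.50 to 23.0 FPKM, lay close above the limit of the rule. The ratios ran from 4.997 to 12.2, and from 7.58 to 18.6 with the library factors divided out. The 1.39% covers IDs of all rapeseed levels, so it is not matched to the members for level. Of all IDs above 0 on fishmeal, 7.49% at 10 to 20 FPKM on rapeseed were at least 2-fold lower on rapeseed. At 100 FPKM or more the share was 1.47%.

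Other IDs of the same components, which the rule did not choose, went the same way where they were above 0 on both diets. In 5 of the 7 components such IDs existed, and 6 of them were above 0 on both diets of strain F. All 6 were higher on fishmeal, by 4.84 to 10.2 times. The highest, c30681_g2, read 623 FPKM with fishmeal against 60.9 with rapeseed, and c23974_g1 read 462 against 60.9 FPKM. The ID c26283_g2 stood at 207 and 28.2 FPKM, c28728_g1 at 72.5 and 15.0, c30681_g5 at 38.1 and 4.93, and c20893_g2 at 32.4 and 3.68. Left out were c30681_g4 and c30681_g1, which read 3.14 and 1.43 FPKM with rapeseed and had a listed 0 with fishmeal. Their rapeseed levels lay far under the median worth of 1 read in the fishmeal library, so that 0 gives no direction. In the remaining components of members, 5 of the 43 other IDs above 0 on both diets were at least 2-fold higher on fishmeal. IDs of 1 component may share reads and sequence, so the 6 are not independent of the members. The 6 also had to be above 0 on fishmeal, where 1 read was worth a median of 29.2 FPKM in the IDs used for depth. For IDs as low on rapeseed as c30681_g5 and c20893_g2, that condition favours a fishmeal excess, so their direction is partly set by it.

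In strain A these 6 IDs were at or near 0. On fishmeal all 6 were listed at 0. On rapeseed c30681_g2 stood at 0.348 FPKM, c20893_g2 at 1.16, c23974_g1 at 1.24, c28728_g1 at 1.28 and c26283_g2 at 2.43, with c30681_g5 at 0. For the IDs used for depth, 1 read in that library was worth a median of 1.02 FPKM. The values above 0 in strain A lay near or under the worth of 1 to 2 reads in the IDs used for depth. How many reads they rest on is not known, and no diet difference is read from them. The member c23974_g2, at 13.4 FPKM on fishmeal and 16.01 on rapeseed, and c23974_g4, at 0 and 20.4, did not share the pattern of their component.

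**Figure D3:**
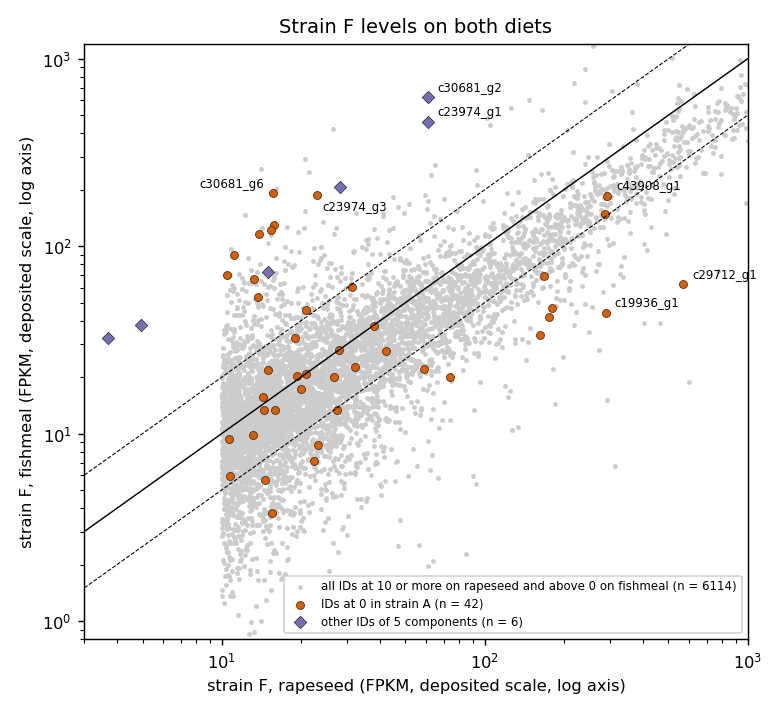
Level in strain F on fishmeal against level on rapeseed (FPKM, both axes log) for the 42 members above 0 on both diets (orange), 6 other IDs of 5 of their components (purple diamonds) and all 6114 IDs at 10 or more on rapeseed and above 0 on fishmeal (grey; IDs beyond the axes are not drawn). The solid line marks equal levels and the dashed lines 2-fold differences; a group of members and the diamonds lie above the upper dashed line, and c29712_g1 and c19936_g1 below the lower one.

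The component of an ID was used to look for other IDs grouped with it by the assembly and present in strain A. Sequences were not compared, so related sequence under another c number would be missed. Of the 66 members, 46 shared their component with at least 1 other ID (69.7%, against 50.5% of the 6632 IDs at 10 or more on rapeseed). The remaining 20 were alone in theirs. Another ID of the component stood at 1 FPKM or more in a strain A library for 35 members (53.0%, against 47.8%), at 10 or more for 15 (22.7%, against 26.6%) and at 100 or more for 7 (10.6%, against 6.05%). The share at 1 FPKM or more, 35 of 66, was thus near that of IDs of this level in general, but more members had another ID at all. Among members with another ID it was 35 of 46, a lower share than the 3172 of 3347 such IDs at 10 or more on rapeseed. That lower share is partly fixed by the rule. In c6838, c13122 and c20203 every ID was a member, and so at 0 in strain A by the choice itself.

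The 20 members alone in their component had a median rapeseed level of 15.2 FPKM, and 11 of them were above 0 on fishmeal. The 46 others had a median of 19.6 FPKM, with 31 above 0. Of the 20, 3 stood at 50 FPKM or more on rapeseed: c43908_g1, c19936_g1 and c21193_g1, the last at 59.1 FPKM and at 22.1 FPKM on fishmeal. For these 3 no ID of the same component was listed in the tables, so strain A showed no value under that c number.

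In 6 components several IDs were members, 15 IDs in all. The component c35280 held c35280_g1 at 26.8 FPKM on rapeseed and 19.99 on fishmeal, c35280_g4 at 23.2 and 8.67, and c35280_g6 at 15.6 and 3.75. All 3 were present on both diets and higher on rapeseed as deposited, though for c35280_g1 the log2 fold turned from 0.41 to -0.17 with the library factors divided out. Its other 3 IDs reached at most 1.67 FPKM in strain A. The components c23974 and c30681 are those with high fishmeal levels described above.

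The components c6838, c13122 and c20203 were made up of members alone. In c6838, c6838_g2 was above 0 on both diets and c6838_g1 on rapeseed only. In c13122, the lower of its IDs, c13122_g2 (27.4 FPKM on rapeseed), was the one seen on fishmeal, at 13.3 FPKM. In c20203, c20203_g1 stood at 20.9 and 20.7 FPKM, and c20203_g3 and c20203_g2, at 20.2 and 16.7 FPKM on rapeseed, were listed at 0 on fishmeal. With c19950, these were the 4 components of several IDs in which every ID, 10 in all, was listed at 0 in strain A.

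The 33 other components of several IDs all held an ID above 0 in strain A. In 18 of them the highest strain A level of any ID was under 10 FPKM, and in 15 it was 10 FPKM or more. In the 18, the summed level of the component on rapeseed favoured strain F at least 2-fold in 17 and was within 2-fold in 1, with a median log2 fold of 3.14. In the 15, it was at least 2-fold higher in 4, at least 2-fold lower in 1 and within 2-fold in 10, with a median of 0.45. The components were split by their strain A level, which is part of the fold, and the member adds to the strain F sum by the rule. These folds are therefore a description.

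Values are given next for the components that were most abundant in strain A. The member c29866_g2 stood at 11.9 FPKM in strain F on rapeseed and 0 on fishmeal, beside c29866_g1 at 916 and 1909 FPKM in strain A (fishmeal, then rapeseed) and 761 and 1331 in strain F. The member c31141_g2, at 69.3 FPKM on fishmeal and 169 on rapeseed, stood beside c31141_g1 at 579 and 930 FPKM in strain A, against 343 and 527 in strain F. In c31141 the members' share of the component's rapeseed level in strain F was 24.2%, and in c29866 0.890%. A member could thus be a minor or a sizeable part of a component that was abundant in both strains.

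In c31265, the member c31265_g2 read 19.9 FPKM with fishmeal and 73.6 with rapeseed. The more abundant c31265_g4 read 61.4 and 687 FPKM on the diets in strain A, against 140 and 327 FPKM in strain F, and was higher on rapeseed in both. In c31647, the member c31647_g2 read 28.0 FPKM with fishmeal and 27.9 with rapeseed, beside c31647_g1 at 457 and 494 FPKM in strain A and 98.5 and 97.2 in strain F. In that component the level seen only in strain F was joined by a 5.09 times lower level of the other ID on rapeseed.

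In c33847, the member c33847_g3 was the highest ID of its component in strain F on rapeseed at 180 FPKM, above c33847_g1 at 128. In strain A, c33847_g1 stood at 157 and 189 FPKM and c33847_g4 at 54.5 and 58.2. In c29712, the other ID, c29712_g2, read 43.4 and 68.5 FPKM in the strain A libraries. In strain F it read 294 FPKM with rapeseed and was listed at 0 with fishmeal. Both IDs of c29712 were thus higher in strain F on rapeseed, and they made a total of 861 FPKM there against 68.5 in strain A.

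Other members stood beside IDs that were above 10 FPKM in all 4 libraries. The member c32516_g5 (7.14 FPKM on fishmeal and 22.5 on rapeseed) shared its component with c32516_g4, at 151 and 159 FPKM in strain A and 167 and 128 in strain F. The member c33429_g3 (0 and 11.4 FPKM) stood beside c33429_g2, at 172 and 223 FPKM in strain A and 87.3 and 221 in strain F. The members c34151_g6 (32.3 and 19.1 FPKM), c33098_g6 (5.63 and 14.6) and c37877_g4 (0 and 11.1) also had an ID above 20 FPKM in all 4 libraries, namely c34151_g4, c33098_g2 and c37877_g3. In c27093 both other IDs stood at 12.8 to 38.1 FPKM in all 4 libraries. In c27348, c27348_g1 read 14.3 and 19.0 FPKM in the strain A libraries, against 47.5 and 12.1 FPKM in those of strain F.

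The opposite pattern within a component was also seen. In c30556, an 8-ID component, c30556_g1 read 53.3 and 64.8 FPKM in the strain A libraries, 0 in strain F with fishmeal and 0.289 FPKM with rapeseed. The member c30556_g3 read 0, 0, 33.6 and 163 FPKM across those libraries. The ID c30556_g2 likewise went from 6.88 and 9.26 FPKM in strain A to 0 in both strain F libraries. In all, 7 other IDs of 4 components (c30556, c32453, c34151 and c30135) were at 1 FPKM or more in both strain A libraries, at 0 in strain F on fishmeal and at under 0.1 of the lower strain A level on rapeseed. They made up 13.0% of the 54 other IDs at 1 or more in both strain A libraries, beside 9.31% of all 29682 such IDs. The share was close to the background, so the pattern is not particular to these components.

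**Figure D4:**
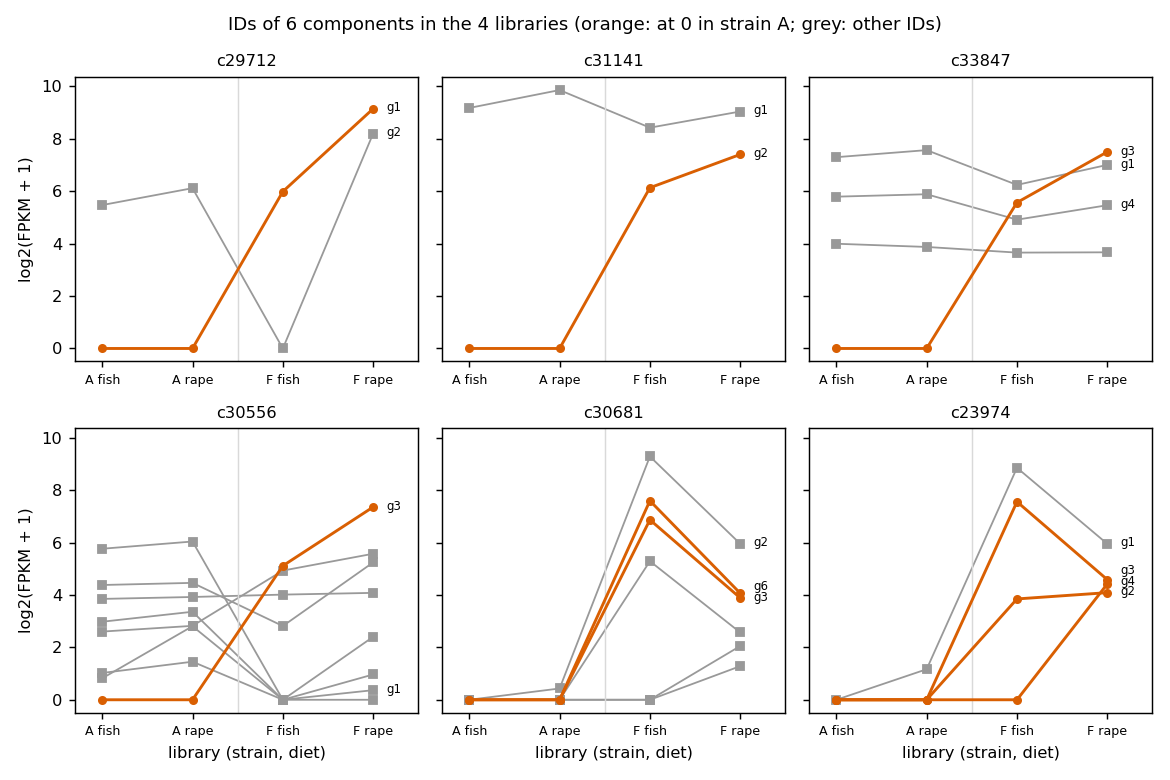
Levels as log2(FPKM + 1) of all IDs of 6 components in the 4 libraries (A and F are the strains, fish and rape the diets); orange circles are members and grey squares other IDs, and g numbers label members and other IDs that reach 50 FPKM. In c31141 and c33847 the other IDs are present in both strains, in c30556 g1 is high in strain A and near 0 in strain F, and in c30681 and c23974 the highest levels are in strain F on fishmeal.

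The 98 other IDs in the members' components were not chosen by the rule. Of them, 82 were above 0 in strain A and 16 were not. Of those 16, 13 were above 0 in strain F on rapeseed, at 0.749 to 9.59 FPKM, and 3 were at 0 in every library. With a mean of 1 FPKM or more over the 4 libraries, 83 remained. On rapeseed, strain F exceeded strain A at least 2-fold in 31 of these (37.3%), against 11.1% of all 35517 IDs. At least 2-fold lower were 16 (19.3%), against 12.5%. With the library factors divided out, 35 were higher (42.2%, against 13.8%) and 12 lower (14.5%, against 9.37%). These shares lay above those of IDs in general, more so towards strain F. However, IDs at 0 in strain A, some of the 13 among them, could reach the mean of 1 FPKM only through strain F. The 35517 IDs were also not limited to components of several IDs, so the shares are a description. Reads of near-identical copies may be split among the IDs of a component, and whether that touches these counts was not tested.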

How the data were processed

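The authors deposited 1 table per liver library with a value for each ID. The submitters' processing notes list Bowtie 1.0.1 and RSEM 1.2.17 and give no roles for them. For the reference used in alignment, nothing is given in the sources at hand. In each library at least 99.3% of the distinct deposited values under 3 were, to within 0.0006, whole multiples of 1 step. The values the authors deposited are therefore treated as FPKM of 2 decimals that they multiplied by 1 factor per library (the step divided by 0.01). Values were used as deposited, and also with the factors divided out. Absolute depth is unknown. The relative depth of the strain F fishmeal library was read from IDs whose values in the other 3 libraries were 1, 2 or 3 times their minimum (within 0.06 on the log2 scale, minimum 0.4 to 2). Of 2243 such IDs, 176 were above 0 in that library. For 122 of these, the value there was over 8 times the minimum, and lower ratios were left out. The depth ratio is the median of the largest cluster of the ratios kept, with 71 IDs. The procedure was tested on simulated data. These held no strain or diet difference beyond IDs set to be present in strain F only. How other such differences touch the depth estimate was not tested.

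The members, lists and alternatives were chosen with earlier results of these data known. Folds are differences of log2(FPKM + 1), with no test, since each group has 1 library. IDs named are members at 100 or more on rapeseed, those sharing a component, those with the most abundant other IDs in strain A, those with the 3 largest folds each way between diets, and those at the edges of the rule. Others were named after their values were seen. No cell type marker could be looked up. Python 3.11.15, numpy 2.4.6, pandas 2.3.3 and matplotlib 3.10.9 were used.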

Additional observations from a re-analysis of the deposited data

Results flagged for a closer look

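Matching differences are the diet difference in each strain, or the strain difference on each diet. In 7 other IDs of the members' components, given below, they were at least 2-fold in opposite directions. The 7 are not all such IDs: by the strain difference, c35280_g3, c37877_g2, c37288_g1 and c32117_g3 also met this. No share over all IDs is given for this pattern, so the 7 are not read as particular to these components. With 1 library per group none of these differences of differences was tested, and all include the shallow library. For the diet difference, the value in strain F less the value in strain A, on the log2 scale, was -4.07 for c23974_g1, -4.61 for c26283_g2, -3.39 for c28728_g1 and -3.95 for c20893_g2, all at 0 in strain A with fishmeal. It was 6.71 for c1169_g2, which read 1.05 FPKM and 0 in strain A (fishmeal, then rapeseed) and 0 and 49.9 FPKM in strain F. For the strain difference, the value with rapeseed less the value with fishmeal was also 6.71 for c1169_g2, and it was 7.56 for c29712_g2 and -2.24 for c31265_g4. All of these but that of c31265_g4 include at least 1 listed 0, so their sizes depend on the pseudocount. The rapeseed values of c23974_g1, c26283_g2, c28728_g1 and c20893_g2 in strain A lie near the worth of 1 to 2 reads in the IDs used for depth. How many reads they rest on is not known.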

How the results depend on the processing

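The counts follow the limit on the rapeseed level. At 5, 20 and 50 FPKM in place of 10, the members numbered 245, 29 and 13, of which 82, 23 and 10 were above 0 in strain F on fishmeal and 84, 17 and 7 had another ID of the component at 1 or more in strain A. The share above 0 on fishmeal was 33.5%, 79.3% and 76.9%, below the 82.7%, 95.5% and 98.0% of all IDs at those limits. The median log2 fold of rapeseed over fishmeal turned to -0.57 at 5 FPKM and was 0.95 at 20 and 1.88 at 50. With the library factors divided out and the limit of 10 applied on that scale, it turned to -0.25 over 40 of 62 members. Asking for another ID at 10 or more in strain A left 15 members. Further choices were made after seeing the data: without the members of c30681 and c23974 the median was 0.40, and 12 members stood above the 95th percentile of the worth of 1 read on fishmeal. The other alternatives (a pseudocount of 0.1 or 0, strain A at up to 0.1, a fishmeal limit of 10, another ID above 0 in either or at 1 or more in both strain A libraries) moved a count by under 1.5 times or the median by under 0.1. No paired analysis was possible because each group has 1 library. The depth of the strain F fishmeal library limits every value that uses it: a listed 0 there does not show that an ID was absent.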

Other observations

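The exact 0 asked of strain A left out IDs with a trace there. In all, 13 IDs stood at 10 FPKM or more in strain F on rapeseed and above 0 in strain A but at no more than 1% of that level. All 13 were above 0 in strain F on fishmeal, against 42 of the 66 members, but they were more abundant: their median rapeseed level was 108 FPKM, with 7 at 100 or more, against a median of 16.7 FPKM for the members. Of all IDs at 100 or more on rapeseed, 99.1% were above 0 on fishmeal. Some were more abundant than any member. The most abundant on rapeseed, c36017_g1, read 18.01 and 15.2 FPKM in strain A (fishmeal, then rapeseed) and 2366 and 2675 FPKM in strain F. The ID c26076_g1 read 0.139, 0.374, 212 and 361 FPKM across those libraries, and c26076_g3, of the same component, 0, 0.067, 121 and 156 FPKM. Of the 13, only c30681_g2 shares a component with a member. The IDs c36017_g1 and c26076_g1 were named after their values were seen.

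The ID c36967_g1, at 125 FPKM in strain F on fishmeal and 14.2 on rapeseed, had a fishmeal excess of 8.74 times, inside the 4.997 to 12.2 times of the 8 members with high fishmeal levels. It stood at 0 and 0.053 FPKM in strain A.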
